A study of Mus with 9 samples.

Results

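The genes described here are 39 genes of the peroxisome, namely 13 Pex genes that build the organelle and 26 genes for enzymes and transporters of peroxisomal lipid, amino acid and coenzyme metabolism. They were found in the deposited table by gene name, and they are 39 of its 54532 genes. All 39 passed the filter on low counts, as did 15902 genes in all. RNA was sequenced from the kidneys of 9 male C57BL/6 mice, 1 library per mouse, in 3 groups of 3 named 18 mo, 21 mo and 21 mo/O304. Every mouse had lost 1 kidney by unilateral nephrectomy at 18 months of age. The 18 mo mice were killed 1 week after surgery. The 21 mo mice had saline injected into the peritoneum for 12 weeks, and the 21 mo/O304 mice had O304, an activator of the energy-sensing kinase AMPK, injected at 10 mg/kg/day over the same time. Libraries of the 21 mo and 21 mo/O304 groups are called saline and O304 libraries below, and values by library are given in the order of replicates 1, 2 and 3. Age, time after surgery and injections all differ between the 18 mo mice and the others, and their parts in a difference cannot be told apart. Only the comparison of 21 mo/O304 with 21 mo sets mice of the same age and surgery side by side.

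Peroxisomes are small organelles bounded by a single membrane, abundant in the liver and in the proximal tubule of the kidney. Their enzymes are made in the cytosol and carried in by the Pex proteins, and they shorten very long and branched fatty acids, start the synthesis of ether lipids and oxidize D-amino acids and hydroxy acids with release of hydrogen peroxide. Inherited defects of several Pex genes cause the Zellweger spectrum of disease, in which very long chain fatty acids accumulate.

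Total counts on genes ran from 15636378 to 18396725 per library, and the 39 genes took 0.806% to 0.949% of them in the 18 mo libraries. Levels are given as CPM, the count scaled to library size by the TMM method of edgeR, except that levels of different genes are compared as FPKM, which also divides by gene length. Group means are given ± SD (n = 3), and fitted changes as log2 fold changes with their standard error (SE). The spread between mice was unequal, with a biological coefficient of variation of 44.1% among saline mice, against 18.1% among 18 mo mice and 20.6% among O304 mice. Replicates 2 and 3 of the saline group stood apart in markers of the tubule. The summed level of 9 proximal tubule markers was 12389, 5606 and 1501 CPM in the saline libraries, against 12018 to 14668 CPM in the 18 mo and 12491 to 13294 CPM in the O304 libraries. The summed level of 5 markers of injured tubule was 1302, 12225 and 14032 CPM in the saline libraries, against 656 to 785 CPM and 688 to 1045 CPM in the other groups. Most of this sum was Spp1, with 1235, 11162 and 12555 CPM in the saline libraries. The other markers were also higher in saline replicates 2 and 3 than in replicate 1, with Havcr1, Krt20 and Vcam1 highest in replicate 2. Replicates 2 and 3 enter every comparison with the saline group below, and their part in each difference was not tested. In RNA from whole kidney, fewer cells of a type and less RNA per cell cannot be told apart.

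The levels of the 39 genes spanned a wide range. The mean FPKM over all 9 libraries was above 100 for 11 genes, between 10 and 100 for 17, between 1 and 10 for 9 and below 1 for 2, Hacl1 and Abcd2. The 5 highest were Phyh, Pecr, Ehhadh, Scp2 and Nudt19. The highest Pex gene was Pex2, with a mean FPKM of 30.0, against 242 for Phyh and 0.256 for Abcd2. Of the 39 genes 23 overlap another annotated gene, 8 of them a gene on the same strand, and reads of such pairs may not be told apart.

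**Figure D1:**
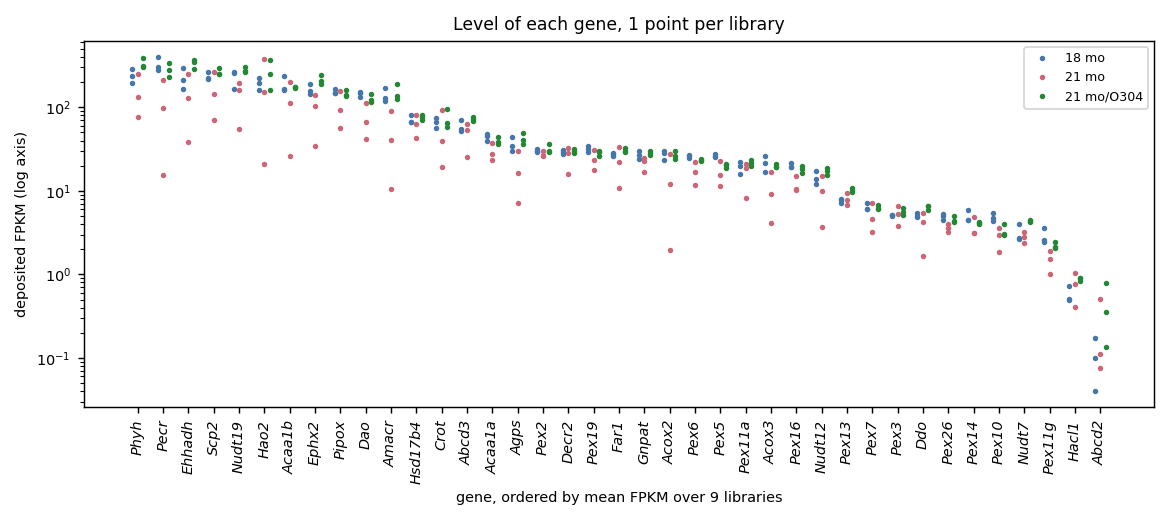
Deposited FPKM (log axis) of each of the 39 genes in each of the 9 libraries, 1 point per library, coloured by group, with genes ordered by their mean. For most genes the lowest point is a library of the 21 mo group, and Phyh is first and Abcd2 last in the order.

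Between 18 and 21 months most of the peroxisomal genes had lower fitted levels, but no gene passed the test, and the mice of the 21 mo group differed widely among themselves. The fitted level was lower in the 21 mo group for 35 of 39 genes and higher for 4 (Abcd2, Hacl1, Pex13 and Pex3). The median log2 fold change was −0.54 (range −1.59 to 1.16), beside 0.03 over all 15902 genes tested. With the quasi-likelihood test of edgeR, 0 of 39 genes had an adjusted p under 0.05 in either direction, where the background over all genes was 0% lower and 0.0189% higher. At an unadjusted p under 0.05, 12 of 39 genes were lower and 0 higher, against 12% of all genes lower and 14% higher. The 3 saline libraries all lay below the 3 libraries of the 18 mo group for 14 genes and all above for 0, against 15.3% and 13.5% of all genes. DESeq2 on all 9 libraries called 5 genes lower (Amacr, Dao, Pex10, Pex11g and Pex16), and it called 7.18% of 28171 genes in either direction. DESeq2 was fitted to every gene with a count, so its shares here and below include low-count genes left out of the 15902. DESeq2 on the 6 libraries compared called 1 lower, Pex16, with 3.73% of 26940 genes called in either direction. Among the limma fits, voom with sample quality weights called 28 lower, where it called 52.9% of all genes in 1 direction or the other. Limma-trend on FPKM called 0, with at most 0.0279% of all genes called. Without saline replicate 1, edgeR called 19 genes lower, and the median was −0.91. Over all genes it called 25.4% in either direction, 1954 lower and 2232 higher of 16463. Without replicate 3 it called 0 (0.806% of all genes in either direction), the median was −0.24, and 31 of 39 fitted levels were lower. Without it the log2 fold change of 25 of the 39 genes changed sign or moved by over 1.5 times, with 6 of them changing sign.

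In the mice given O304, all 39 genes had higher fitted levels than in the saline mice of the same age. The median log2 fold change was 0.51 (range 0.12 to 1.67), beside −0.02 over all genes. Here too 0 of 39 genes had an adjusted p under 0.05 with edgeR, as did 0% of all genes in the higher and 0% in the lower direction. At an unadjusted p under 0.05, 14 of 39 were higher and 0 lower, against 8.27% of all genes higher and 12.4% lower. The 3 O304 libraries all lay above the 3 saline libraries for 19 genes and all below for 0, against 10.8% and 10.5% of all genes. DESeq2 called 0 genes on all 9 libraries and 0 on the 6 compared. It called 3.18% of 28171 and 1.75% of 26840 genes in either direction. Limma-trend called 0 genes (0% of all genes). Limma voom with sample quality weights called 30, with 41.1% of all genes called in either direction. Without saline replicate 1, edgeR called 24 genes higher, with a median of 0.79. Over all genes it called 23.1% in either direction, 1741 higher and 2067 lower of 16463. Without replicate 3 it called 0 (0.0062% of all genes in either direction), the median was 0.28, and 36 of 39 fitted levels were higher. In that fit 28 log2 fold changes changed sign (3) or moved by over 1.5 times. This comparison and that with the 18 mo group share the 3 saline libraries, so opposite signs in them are not independent.

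Set against the 18 mo group, the 21 mo/O304 libraries showed fitted levels on both sides. Of the 39 genes 23 were higher and 16 lower, with a median log2 fold change of 0.09 beside 0.00 over all genes. With edgeR, 0 genes had an adjusted p under 0.05 (0% of all genes higher and 0% lower), and at an unadjusted p under 0.05 there were 2 higher, Pex13 and Nudt7, and 0 lower, against 4.33% and 5.33% of all genes. The spread behind these p-values includes that among the saline mice. Fitted on the 6 libraries compared alone, edgeR gave 10 of the 39 genes an unadjusted p under 0.05. In that fit 0 of the 39 had an adjusted p under 0.05, as did 0.144% of all genes. Its share of all genes at an unadjusted p under 0.05 is not given here. Libraries did not overlap for 7 genes that were higher and 4 that were lower, against 13.2% and 13.3% of all genes. The 4 lower ones, a smaller share than among all genes, were Pex10, Pex5, Pex14 and Pex6, each with an unadjusted p over 0.05 (edgeR). Of the 13 Pex genes 9 were lower (median −0.13), and of the 26 other genes 19 were higher (median 0.17). Over all genes 49.6% were lower and 50.4% higher. A difference between the Pex genes and the others was not tested. DESeq2 called 0 genes on all 9 libraries, with 0.419% of 28171 genes called in either direction. Limma voom with sample quality weights called 1, Pex13, with 2.61% of all genes called in either direction. DESeq2 on the 6 libraries compared called Ehhadh and Pex13 higher and Pex5 lower, with 2.97% of 26656 genes called in either direction.

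**Figure D2:**
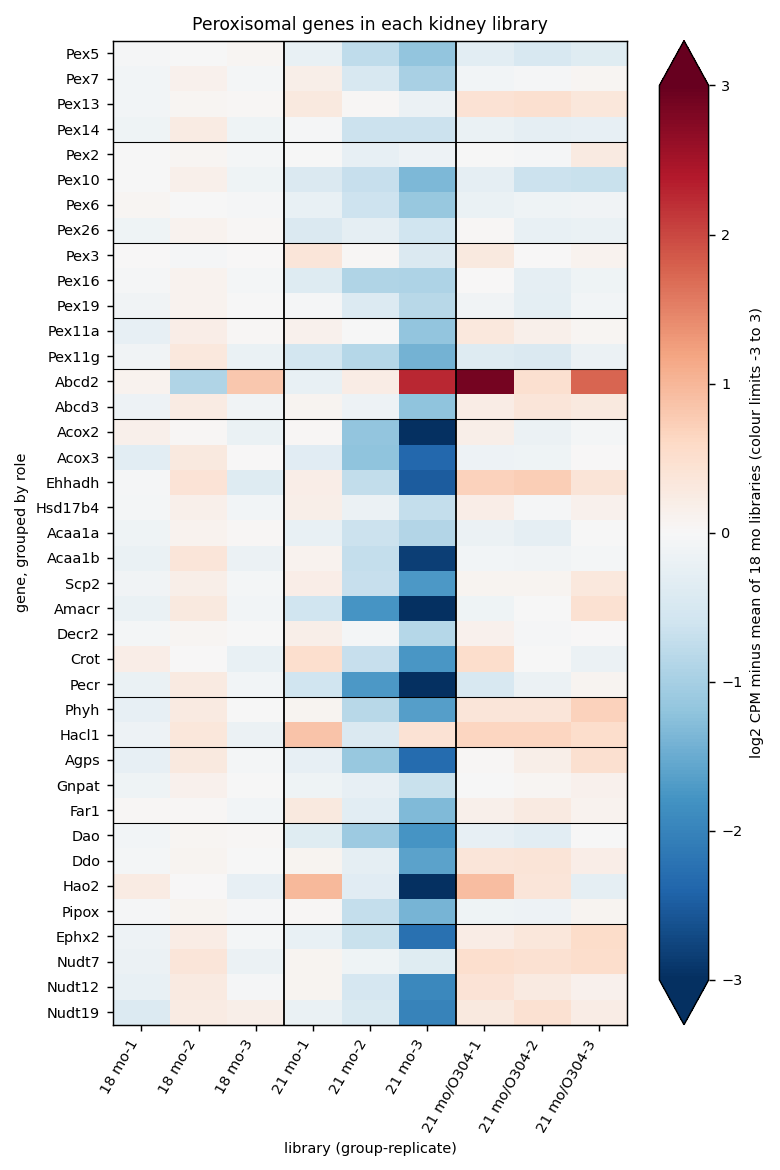
Log2 CPM of each of the 39 genes (rows, grouped by role with lines between roles) in each of the 9 libraries (columns), minus the mean of the 18 mo libraries, with blue lower and red higher and colours limited to −3 and 3. Replicate 3 of the 21 mo group is blue in 37 of 39 rows, replicate 2 mostly blue, and replicate 1 is close to the 18 mo libraries.

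Among the import receptors and the docking complex, Pex5 had the smallest p between 18 and 21 months. Pex5, the receptor that binds most peroxisomal enzymes in the cytosol and lies on chromosome 6 from 124396816 to 124415067, was at 103, 106 and 111 CPM in the kidneys of 18 mo mice, 91.6, 62.5 and 46.9 CPM with saline and 85.4, 77.1 and 82.9 CPM with O304. Every saline and every O304 library lay below the lowest 18 mo library. For Pex5, edgeR gave log2 fold changes of −0.67 (SE 0.21, adjusted p = 0.101) for 21 mo against 18 mo, 0.29 (SE 0.21, adjusted p = 0.429) for O304 against saline and −0.39 (SE 0.21, adjusted p = 0.598) for O304 against 18 mo. Pex13, a membrane protein of the docking complex on chromosome 11 from 23646479 to 23665959 that overlaps Pus10 on the other strand, had 34.4, 38.2 and 37.4 CPM in the 18 mo, 45.0, 37.6 and 32.4 CPM in the saline and 49.1, 51.5 and 46.6 CPM in the O304 libraries. Its 3 O304 libraries were the highest of the 9, while the 18 mo and saline libraries overlapped. Pex13 had fitted log2 fold changes of 0.36 (SE 0.13, adjusted p = 0.198) for O304 against saline, 0.42 (SE 0.13, adjusted p = 0.368) for O304 against 18 mo and 0.06 (SE 0.13, adjusted p = 0.785) for 21 mo against 18 mo. Pex7, the receptor for the smaller class of enzymes with a targeting signal near the start of the protein, had means of 79.5 ± 6.48 CPM in the 18 mo, 62.1 ± 25.2 CPM in the saline and 78.7 ± 4.13 CPM in the O304 group. Pex14, the other docking protein, had means of 32.0 ± 4.96 CPM in the 18 mo, 24.0 ± 6.25 CPM in the saline and 26.9 ± 0.788 CPM in the O304 group, with its O304 libraries below its 18 mo libraries.

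After delivering its cargo, the receptor is marked and pulled back out of the membrane. Pex10, a ring-finger ubiquitin ligase on chromosome 4 from 155067016 to 155072433, was at 16.1, 18.1 and 14.8 CPM in the kidneys of 18 mo mice, 12.1, 10 and 6.32 CPM with saline and 13.5, 10.3 and 10.2 CPM with O304. The 18 mo libraries were the 3 highest, and O304 and saline libraries overlapped. For Pex10, edgeR gave log2 fold changes of −0.79 (SE 0.24, adjusted p = 0.0996) for 21 mo against 18 mo, 0.26 (SE 0.24, adjusted p = 0.531) for O304 against saline and −0.53 (SE 0.24, adjusted p = 0.532) for O304 against 18 mo. Pex26, which anchors the export ATPase to the membrane and lies on chromosome 6 from 121183667 to 121198837, had 26.3, 30.8 and 29.2 CPM in the 18 mo, 21.2, 23.6 and 18.9 CPM in the saline and 29.3, 24.8 and 25.1 CPM in the O304 libraries. The saline libraries were the 3 lowest of the 9, and those of the other groups overlapped. Pex26 had fitted log2 fold changes of −0.44 (SE 0.13, adjusted p = 0.0936) for 21 mo against 18 mo and 0.31 (SE 0.13, adjusted p = 0.227) for O304 against saline. Pex6, a subunit of that ATPase, had means of 101 ± 3.84 CPM in the 18 mo, 66.3 ± 20.5 CPM in the saline and 91.4 ± 2.88 CPM in the O304 group. In the fit of 21 mo against 18 mo its log2 fold change came to −0.61 (SE 0.20, adjusted p = 0.109). Pex2, another ubiquitin ligase of the same complex, had means of 71.1 ± 2.83 CPM in the 18 mo, 64.9 ± 5.17 CPM in the saline and 74.7 ± 8.96 CPM in the O304 group.

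Pex16 had the smallest p of all 39 genes in both comparisons with the 21 mo group. It encodes a membrane protein that helps to bring other membrane proteins into the peroxisome, lies on chromosome 2 from 92374676 to 92381217 and overlaps Large2 on the other strand. Pex16 was at 35.6, 38.9 and 34.9 CPM in the kidneys of 18 mo mice, 27.8, 19.4 and 19.0 CPM with saline and 36.5, 30.0 and 33.4 CPM with O304. All saline libraries lay below all libraries of both other groups, which overlapped each other. For Pex16, edgeR gave log2 fold changes of −0.73 (SE 0.16, adjusted p = 0.0691) for 21 mo against 18 mo, 0.60 (SE 0.16, adjusted p = 0.175) for O304 against saline and −0.13 (SE 0.16, adjusted p = 0.846) for O304 against 18 mo. Without saline replicate 3 the first of these was −0.65 and the second 0.51. For 3 against 3 libraries without overlap the exact permutation test gives p = 0.1, two-sided, the smallest it can give. Pex3 and Pex19, the docking site and the carrier for membrane proteins, also act here. Pex3 had means of 24.9 ± 0.445 CPM in the 18 mo, 25.4 ± 6.80 CPM in the saline and 27.5 ± 2.86 CPM in the O304 group, and Pex19 of 125 ± 9.51 CPM in the 18 mo, 95.1 ± 25.9 CPM in the saline and 112 ± 8.87 CPM in the O304 group. Neither had an unadjusted p under 0.05 in any comparison.

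Of the genes for division of the organelle, Pex11g had the largest fold change of the 13 Pex genes between 18 and 21 months. On chromosome 8 from 3457105 to 3467680, Pex11g had 9.04, 12.3 and 8.49 CPM in the 18 mo, 6.62, 5.40 and 3.57 CPM in the saline and 7.50, 7.21 and 8.60 CPM in the O304 libraries. The saline libraries were the 3 lowest, and the 18 mo and O304 libraries overlapped. Pex11g had fitted log2 fold changes of −0.94 (SE 0.26, adjusted p = 0.0851) for 21 mo against 18 mo, 0.58 (SE 0.26, adjusted p = 0.247) for O304 against saline and −0.35 (SE 0.26, adjusted p = 0.704) for O304 against 18 mo. Pex11a had means of 62.9 ± 9.63 CPM in the 18 mo, 52.6 ± 22.1 CPM in the saline and 70.7 ± 6.37 CPM in the O304 group, and among the saline libraries it ranged from 27.4 to 68.6 CPM.

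**Figure D3:**
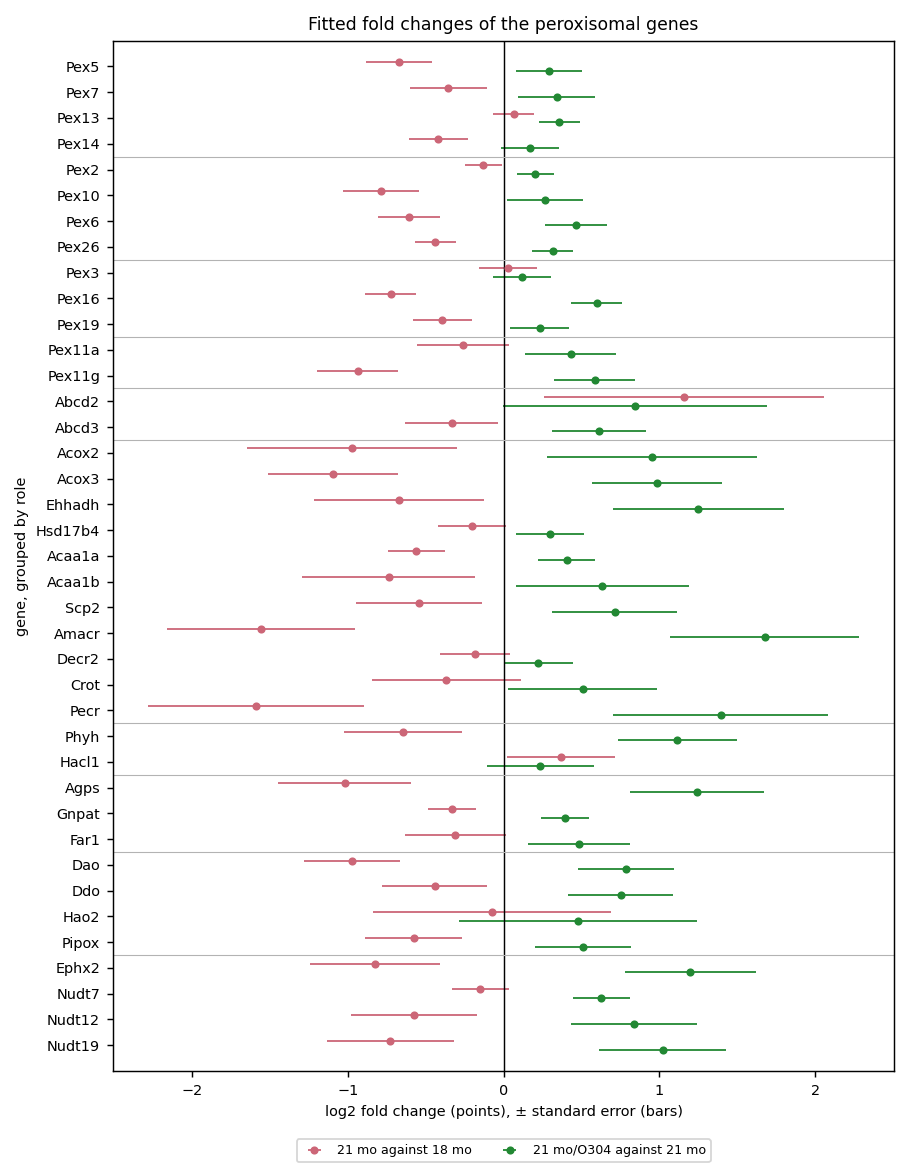
Log2 fold change (points) and standard error (bars) of each of the 39 genes, grouped by role, for 21 mo against 18 mo (red) and 21 mo/O304 against 21 mo (green), from the edgeR fit. The red points lie left of 0 for 35 genes and the green points right of 0 for 39, both sets share the saline libraries, and no gene passed the test.

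Acyl-CoA enters the peroxisome through transporters of the Abcd family. Abcd3, a major protein of the peroxisomal membrane, had means of 402 ± 64.8 CPM in the 18 mo, 319.6 ± 129.8 CPM in the saline and 488 ± 23.8 CPM in the O304 group, and for O304 against saline its fitted change was 0.61 (SE 0.30, adjusted p = 0.272) on the log2 scale. Abcd2, a related transporter on chromosome 15 from 91145871 to 91191799, was near the limit of detection, with 10, 4 and 19 counts in the 18 mo, 7, 12 and 69 in the saline and 84, 14 and 34 in the O304 libraries. Its levels were 0.619, 0.246 and 1.07 CPM in the 18 mo, 0.468, 0.682 and 3.16 CPM in the saline and 4.88, 0.834 and 2.16 CPM in the O304 libraries. The saline and O304 libraries overlapped, and so did the 18 mo and O304 libraries. For Abcd2, edgeR gave log2 fold changes of 1.16 (SE 0.90, adjusted p = 0.428) for 21 mo against 18 mo, 0.84 (SE 0.85, adjusted p = 0.564) for O304 against saline and 2.00 (SE 0.90, adjusted p = 0.523) for O304 against 18 mo, and without saline replicate 3 the first was −0.19 and the second 2.18. Without O304 replicate 1 the second was 0.02 and the third 1.20. The summed level of 7 adipocyte markers was 149, 10.2 and 123 CPM in the O304 libraries and at most 8.94 CPM in the other libraries, with Lep at 0 counts in 5 of those 6. Whether Abcd2 follows the adipocyte markers was not tested.

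The 11 genes grouped here with beta-oxidation, which removes acetyl units from fatty acids, include enzymes that act beside it, such as the reductase Pecr. All 11 were lower in the fit of 21 mo against 18 mo (median −0.67) and higher in that of O304 against saline (median 0.71). At an unadjusted p under 0.05, 4 were lower in the first and 3 higher in the second, where the shares over all genes were 12% and 8.27%. Pecr, a reductase of trans-enoyl-CoA on chromosome 1 from 72259167 to 72284314, was at 439.9, 610.5 and 474 CPM in the kidneys of 18 mo mice, 331, 151 and 24.6 CPM with saline and 358, 442 and 532 CPM with O304. The saline libraries were the 3 lowest of the 9. Pecr had fitted log2 fold changes of −1.59 (SE 0.69, adjusted p = 0.187) for 21 mo against 18 mo and 1.39 (SE 0.69, adjusted p = 0.275) for O304 against saline, with −1.09 and 0.89 once saline replicate 3 was dropped. Amacr, the racemase that turns branched acyl-CoA into the form that can be oxidized, lies on chromosome 15 from 10981756 to 10996626 and had 319, 455 and 348 CPM in the 18 mo, 244, 108 and 28.4 CPM in the saline and 338, 369 and 507 CPM in the O304 libraries. All 3 saline libraries lay below all others, and the 18 mo and O304 libraries overlapped. For Amacr, edgeR gave log2 fold changes of −1.56 (SE 0.60, adjusted p = 0.150) for 21 mo against 18 mo and 1.67 (SE 0.61, adjusted p = 0.196) for O304 against saline.

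Ehhadh, the bifunctional enzyme of the middle steps and a known target of PPARα, lies on chromosome 16 from 21761287 to 21787807 and was at 652, 888 and 513 CPM in the kidneys of 18 mo mice, 772, 398 and 118 CPM with saline and 1069.9, 1120.1 and 873 CPM with O304. Saline replicate 1 lay within the 18 mo range and replicates 2 and 3 below it, and the 3 O304 libraries lay above the 3 saline libraries. Ehhadh had fitted log2 fold changes of −0.67 (SE 0.54, adjusted p = 0.446) for 21 mo against 18 mo, 1.25 (SE 0.55, adjusted p = 0.239) for O304 against saline and 0.58 (SE 0.54, adjusted p = 0.783) for O304 against 18 mo. The first was −0.24 without saline replicate 3 and −1.39 without replicate 1, and the second 0.81 and 1.97. Scp2, which encodes a thiolase for branched chains and a sterol carrier protein, is on chromosome 4 from 108043839 to 108144998, overlaps 2 other genes and had 785, 945 and 805 CPM in the 18 mo, 961, 523 and 254 CPM in the saline and 895, 897 and 1055 CPM in the O304 libraries. For Scp2 the saline libraries ran from above the highest to far below the lowest 18 mo library. For Scp2, edgeR gave log2 fold changes of −0.54 (SE 0.40, adjusted p = 0.409) for 21 mo against 18 mo and 0.71 (SE 0.40, adjusted p = 0.325) for O304 against saline.

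The last step is carried out by thiolases, of which the mouse has a pair of related copies, Acaa1a and Acaa1b, 183 kb apart on chromosome 9. Reads may be shared between copies this similar, so the split between them is uncertain. Acaa1a, on chromosome 9 from 119339676 to 119350299 and overlapping Myd88 and Slc22a14, was at 183, 213 and 204 CPM in the kidneys of 18 mo mice, 172, 127 and 109 CPM with saline and 177, 164 and 198 CPM with O304. Acaa1b, on chromosome 9 from 119148023 to 119157093 and overlapping Dlec1, had 328, 479 and 332 CPM in the 18 mo, 403, 227 and 52.7 CPM in the saline and 352, 348 and 358 CPM in the O304 libraries. The saline libraries of Acaa1a lay below the 18 mo libraries without overlap, while those of Acaa1b overlapped. The ratio of their FPKM values, Acaa1b to Acaa1a, was 3.67 to 5.05 in the 18 mo and 4.07 to 4.76 in the O304 libraries, and 5.28, 4.02 and 1.09 in the saline libraries. For 21 mo against 18 mo, edgeR gave −0.56 (SE 0.18, adjusted p = 0.107) for Acaa1a and −0.74 (SE 0.56, adjusted p = 0.415) for Acaa1b on the log2 scale. For O304 against saline it gave 0.40 (SE 0.18, adjusted p = 0.248) and 0.63 (SE 0.56, adjusted p = 0.509) in the same order. Leaving out saline replicate 3 brought Acaa1b to −0.29 in the first and 0.17 in the second.

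Of the remaining genes of this group, the acyl-CoA oxidases Acox2 and Acox3 act on branched chains and on bile acid precursors. Both were lower on average with saline than among 18 mo and O304 mice, with wide spread. Acox2 had means of 104 ± 12.5 CPM in the 18 mo, 52.8 ± 49.3 CPM in the saline and 102 ± 12.7 CPM in the O304 group. Acox3 had means of 256 ± 54.0 CPM in the 18 mo, 119.6 ± 76.0 CPM in the saline and 236 ± 13.8 CPM in the O304 group. Acox3 had fitted log2 fold changes of −1.10 (SE 0.42, adjusted p = 0.144) for 21 mo against 18 mo and 0.98 (SE 0.42, adjusted p = 0.231) for O304 against saline. Hsd17b4, the other bifunctional enzyme, had means of 251 ± 24.6 CPM in the 18 mo, 219 ± 64.9 CPM in the saline and 268 ± 21.1 CPM in the O304 group. Decr2, a reductase for unsaturated chains, had means of 69.0 ± 2.48 CPM in the 18 mo, 60.8 ± 20.5 CPM in the saline and 70.9 ± 4.23 CPM in the O304 group. Crot, which loads shortened chains onto carnitine for export, had means of 367 ± 52.0 CPM in the 18 mo, 284 ± 213 CPM in the saline and 404 ± 110.5 CPM in the O304 group. Without saline replicate 3 the log2 fold changes of Decr2 and Crot against 18 mo were 0.05 and 0.01.

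**Figure D4:**
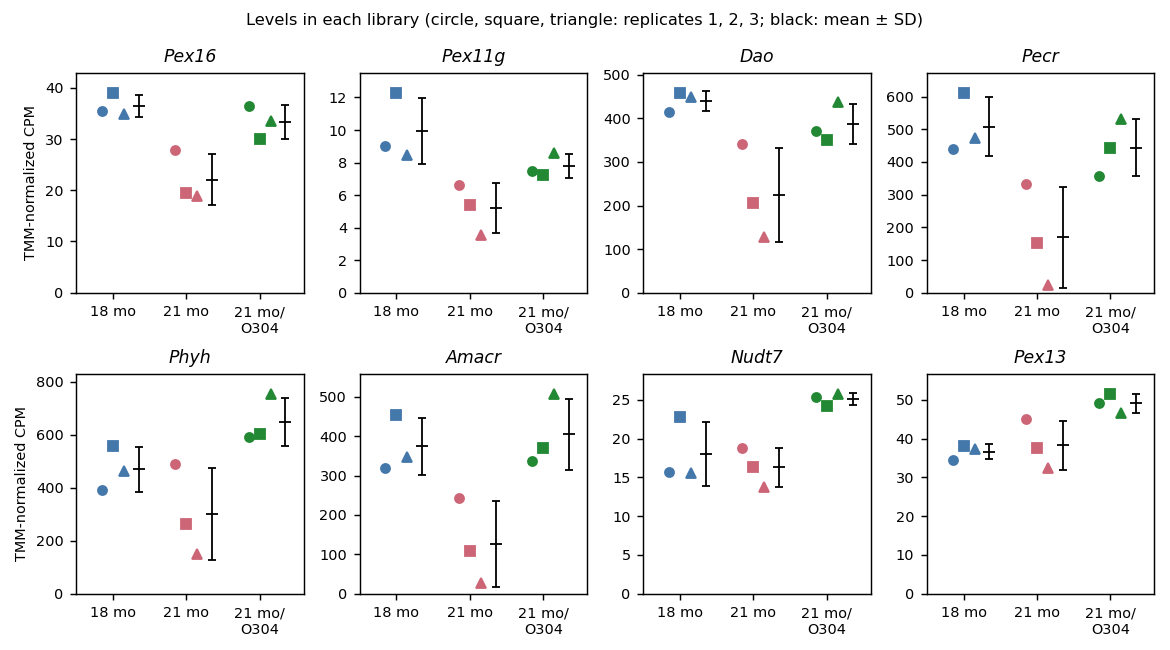
TMM-normalized CPM of 8 genes in each library, with symbols for replicates 1, 2 and 3 and a black bar for the group mean ± SD (n = 3), each axis starting at 0. In the saline group (21 mo) replicate 1 is the highest and replicate 3 the lowest for all 8 genes, and the 3 O304 libraries of Pex13 and Nudt7 are above all others.

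Alpha-oxidation, which removes 1 carbon from branched chains such as phytanic acid, was represented by an abundant and a scarce gene. Phyh, the hydroxylase of the first step and the gene mutated in Refsum disease, lies on chromosome 2 from 4919019 to 4938730 and was at 389.5, 557 and 461 CPM in the kidneys of 18 mo mice, 489, 261 and 149 CPM with saline and 593, 601 and 753 CPM with O304. All 3 O304 libraries lay above all 18 mo and all saline libraries. For Phyh, edgeR gave log2 fold changes of 1.12 (SE 0.38, adjusted p = 0.186) for O304 against saline, −0.65 (SE 0.38, adjusted p = 0.300) for 21 mo against 18 mo and 0.47 (SE 0.38, adjusted p = 0.738) for O304 against 18 mo. Hacl1, the lyase of the next step, overlaps Btd on the other strand and Gm49387 on the same strand. Reads of Hacl1 and Gm49387 may not be told apart, so its low level is uncertain. Hacl1 had means of 2.95 ± 0.649 CPM in the 18 mo, 3.81 ± 1.63 CPM in the saline and 4.48 ± 0.188 CPM in the O304 group. Its O304 libraries lay above its 18 mo libraries without overlap, and edgeR gave 0.60 (SE 0.35, adjusted p = 0.618) between these groups on the log2 scale.

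Ether lipid synthesis starts in the peroxisome with Gnpat and Agps and uses fatty alcohols made by Far1. Agps, which forms the ether bond and lies on chromosome 2 from 75832177 to 75931350, had 291, 426 and 334 CPM in the 18 mo, 289.7, 158 and 70.2 CPM in the saline and 355, 391 and 479.9 CPM in the O304 libraries. The saline libraries were the 3 lowest. Agps had fitted log2 fold changes of −1.02 (SE 0.43, adjusted p = 0.175) for 21 mo against 18 mo, 1.24 (SE 0.43, adjusted p = 0.188) for O304 against saline and 0.22 (SE 0.42, adjusted p = 0.911) for O304 against 18 mo. Gnpat had means of 99.9 ± 9.18 CPM in the 18 mo, 79.2 ± 15 CPM in the saline and 104 ± 5.14 CPM in the O304 group, and Far1 of 228 ± 11.6 CPM in the 18 mo, 184 ± 93.4 CPM in the saline and 256 ± 15.2 CPM in the O304 group. For O304 against saline, edgeR gave 0.39 (SE 0.15, adjusted p = 0.209) for Gnpat and 0.48 (SE 0.33, adjusted p = 0.397) for Far1 on the log2 scale.

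Of the 4 oxidases, Dao had the smallest p in both comparisons with the saline group. Dao, D-amino acid oxidase of the proximal tubule, lies on chromosome 5 from 114003703 to 114025682 and was at 414, 458 and 449 CPM in the kidneys of 18 mo mice, 340.2, 205 and 128 CPM with saline and 372, 351 and 438 CPM with O304. All 3 saline libraries lay below all libraries of the other groups. For Dao, edgeR gave log2 fold changes of −0.97 (SE 0.31, adjusted p = 0.103) for 21 mo against 18 mo, 0.79 (SE 0.31, adjusted p = 0.211) for O304 against saline and −0.19 (SE 0.31, adjusted p = 0.896) for O304 against 18 mo. Ddo, which oxidizes D-aspartate, had means of 47.0 ± 2.39 CPM in the 18 mo, 34.7 ± 17.5 CPM in the saline and 58.3 ± 4.13 CPM in the O304 group. Pipox, which oxidizes pipecolic acid and sarcosine, had means of 389.6 ± 18.2 CPM in the 18 mo, 261 ± 129 CPM in the saline and 372 ± 32.3 CPM in the O304 group. Hao2, a hydroxy acid oxidase, varied widely within groups, with 808, 325 and 45.2 CPM in the saline and 778, 525 and 340.0 CPM in the O304 libraries, and edgeR gave 0.48 (SE 0.76, adjusted p = 0.722) for O304 against saline on the log2 scale. This difference was −0.04 without saline replicate 3, which turned its direction, and 0.12 without O304 replicate 1. The values of Hao2 by library are given because of this spread, after they were seen.

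For each of the 4 hydrolases the 3 O304 libraries lay above the 3 saline libraries, as they did for 10.8% of all genes. Nudt7, which cleaves coenzyme A and lies on chromosome 8 from 114133557 to 114154739, had 15.7, 22.8 and 15.6 CPM in the 18 mo, 18.8, 16.3 and 13.7 CPM in the saline and 25.3, 24.2 and 25.7 CPM in the O304 libraries. The 3 O304 libraries were also above the 18 mo libraries, and the 18 mo and saline libraries overlapped. Nudt7 had fitted log2 fold changes of 0.63 (SE 0.18, adjusted p = 0.175) for O304 against saline, 0.48 (SE 0.18, adjusted p = 0.464) for O304 against 18 mo and −0.15 (SE 0.18, adjusted p = 0.623) for 21 mo against 18 mo. Ephx2, the soluble epoxide hydrolase that breaks down lipid epoxides, lies on chromosome 14 from 66084374 to 66124500 and was at 375, 483 and 398 CPM in the kidneys of 18 mo mice, 359, 262 and 87.7 CPM with saline and 487, 524 and 615 CPM with O304. Its 3 saline libraries were the 3 lowest. Ephx2 had fitted log2 fold changes of 1.20 (SE 0.42, adjusted p = 0.190) for O304 against saline and −0.83 (SE 0.42, adjusted p = 0.242) for 21 mo against 18 mo. Nudt19, another coenzyme A hydrolase on chromosome 7 from 35547185 to 35556304, had 463, 729.6 and 704 CPM in the 18 mo, 541, 449 and 155 CPM in the saline and 755, 844 and 721 CPM in the O304 libraries. For this gene the saline libraries overlapped those of the 18 mo group. For Nudt19, edgeR gave a log2 fold change at 1.02 (SE 0.41, adjusted p = 0.216) for O304 against saline. Nudt12, which cleaves NADH, had means of 65.2 ± 11.5 CPM in the 18 mo, 43.8 ± 26.0 CPM in the saline and 78.1 ± 8.01 CPM in the O304 group. Its O304 libraries were above its saline libraries, and edgeR gave 0.84 (SE 0.40, adjusted p = 0.267) for this comparison on the log2 scale.

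The order of the 3 saline mice was nearly the same for all of these genes. Replicate 1 was the highest saline library for 37 of 39 genes and replicate 3 the lowest for 36, and for the same 36 genes replicate 3 was the lowest of all 9 libraries. The exceptions at the low end were Abcd2, Hacl1 and Pex2. The share of all genes with this order was not counted, and the saline mice varied most over all genes too (44.1%). Relative to the 18 mo mean, the median log2 level of the 39 genes was 0.03, −0.62 and −1.33 in saline replicates 1 to 3. For the 13 Pex genes it was −0.03, −0.48 and −0.94, and for the 26 others 0.08, −0.66 and −1.74. In the 3 O304 libraries the median over the 39 genes was 0.09, −0.02 and 0.08. The share of all counts on the 39 genes was 0.838%, 0.605% and 0.301% in the saline libraries and 0.918% to 0.927% in the O304 libraries.

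The proximal tubule markers had the same order in the saline mice, with a median relative log2 level of 0.08, −1.0 and −2.80, which in replicates 2 and 3 is below that of the peroxisomal genes. Of the 9 markers 8 were lower in the fit of 21 mo against 18 mo and 9 higher in that of O304 against saline, with 0 past an adjusted p of 0.05. Slc34a1, the phosphate transporter of the proximal tubule, had 3510.4, 1815 and 471 CPM in the saline libraries, against a lowest value of 4593 CPM in the 18 mo and 4114 CPM in the O304 libraries. The saline libraries lay below the 18 mo libraries for Slc34a1, Slc5a2 and Slc22a6, and overlapped them for the other markers. Lrp2 had 3219, 1340 and 318 CPM in the saline libraries, and replicate 1 was its highest library of all. The lists for other cells went both ways in saline replicate 3. The median relative log2 level of 6 fibroblast markers was −0.70, 0.78 and 2.40 in saline replicates 1 to 3, that of 5 macrophage markers was 0.67, 0.76 and 2.38, and that of 5 injured tubule markers was 0.87, 5.09 and 4.24. It was −0.07, −0.09 and 1.89 for podocyte, 0.09, −0.51 and 0.69 for lymphocyte and −0.52, 0.78 and 1.17 for adipocyte markers. In 18 mo replicate 3 the lymphocyte median was 0.50 and the adipocyte median 1.98. The adipocyte markers were near the floor, with 6.18 CPM summed in saline replicate 3 and 8.94 CPM in 18 mo replicate 3. In the other direction, the median relative log2 level in saline replicates 1 to 3 was 0.38, −0.25 and −1.06 for markers of the thick limb and distal tubule, −0.48, −0.28 and −0.48 for the collecting duct and 0.12, −0.29 and −0.61 for endothelium. The part of these cells in the levels of the peroxisomal genes was not tested.

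**Figure D5:**
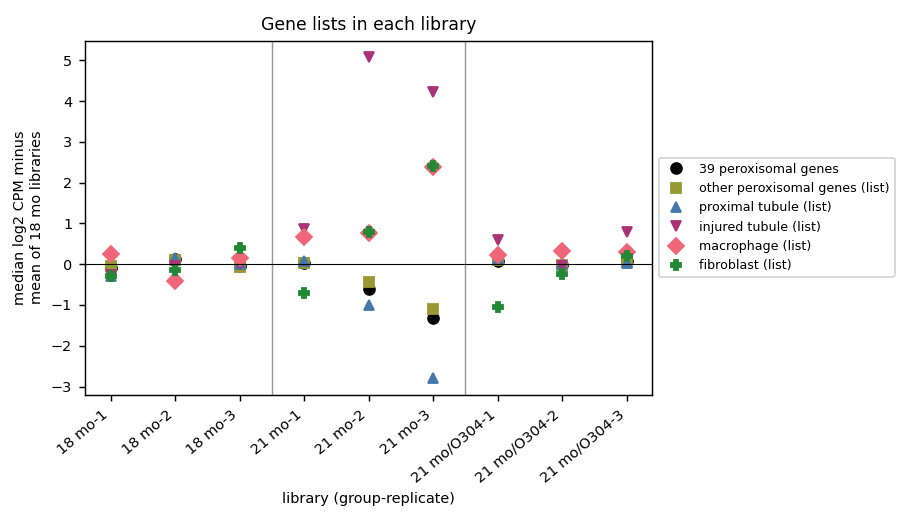
Median log2 CPM minus the mean of the 18 mo libraries, in each library, for the 39 peroxisomal genes, the other peroxisomal genes and 4 lists of cell type markers. The peroxisomal and proximal tubule points are lowest in replicate 3 of the 21 mo group (−1.33 and −2.80), where the fibroblast and macrophage points are high, and lie near 0 in the 18 mo and O304 libraries.

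A list of 35 other peroxisomal genes, which includes catalase, had 33 genes past the filter on low counts. In the fit of 21 mo against 18 mo 26 of these were lower and 7 higher, with 0 at an adjusted p under 0.05 (edgeR). At an unadjusted p under 0.05, 6 were lower and 0 higher, against 12% of all genes lower and 14% higher. For O304 against saline 26 were higher and 7 lower, with 0 at an adjusted p under 0.05. At an unadjusted p under 0.05, 5 were higher and 3 lower, against 8.27% of all genes higher and 12.4% lower. The smallest p in the first belonged to Tysnd1, the protease that trims imported enzymes, at −1.03 (SE 0.22, adjusted p = 0.0626) on the log2 scale, followed by Mlycd, malonyl-CoA decarboxylase, at −0.98 (SE 0.26, adjusted p = 0.0817). In the second, Mvk, an enzyme of cholesterol synthesis, came first and in the other direction at −0.70 (SE 0.18, adjusted p = 0.175).

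Many peroxisomal enzymes of rodents are induced through the nuclear receptor PPARα. Of 19 genes of a list of PPARα and its targets, 17 were tested. In the fit of 21 mo against 18 mo 11 were higher and 6 lower, and for O304 against saline 12 were higher and 5 lower. In each, 0 had an adjusted p under 0.05 (edgeR). At an unadjusted p under 0.05, 5 were higher and 1 lower in the first, against 14% and 12% of all genes. In the second 2 were higher and 1 lower at that p, against 8.27% and 12.4% of all genes. Cyp4a14, a fatty acid hydroxylase, had log2 fold changes of 3.01 (SE 0.65, adjusted p = 0.0631) for 21 mo against 18 mo and −1.81 (SE 0.62, adjusted p = 0.186) for O304 against saline. Rxra, the receptor that pairs with PPARα, had −0.65 (SE 0.23, adjusted p = 0.123) and 0.60 (SE 0.23, adjusted p = 0.204). Against 18 mo, 16 of the 17 genes were higher in the O304 group, with 0 at an adjusted p under 0.05 (edgeR). At an unadjusted p under 0.05, 3 were higher, against 4.33% of all genes.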

How the data were processed

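Kidney RNA was sequenced from 9 mice, 1 library per mouse and 3 per group. Per the paper's methods and the submitters' processing notes, the authors cleaned the paired-end reads of adapters and poor bases and used HISAT2 2.0.5 for alignment, with GRCm38 and mm10 named as builds. The authors made the counts per gene with featureCounts 1.5.0-p3 and deposited them raw. The FPKM values are the authors' counts divided by gene length and library size. Strandedness and the handling of multi-mapping reads are not given in the sources used here, so values of genes that overlap another gene (23 of the 39) or have near copies are uncertain. The authors' own results in the table (group means, fold changes on the log2 scale, p-values raw and adjusted) were not used.

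The 39 genes were taken by symbol, and the coordinates printed are those of the table. All 39 symbols matched RefSeq of GRCm38.p6, at overlapping positions. The members and all gene lists were chosen with earlier results of these data known. Genes were kept by filterByExpr of edgeR 4.0.16 (minimum count 10, minimum total 15), normalized by TMM, and tested by the quasi-likelihood test in R 4.3.3 over all 9 libraries with 3 group means (6 residual degrees of freedom), two-sided, with Benjamini-Hochberg adjustment over the 15902 genes tested and a threshold of 0.05. Log2 CPM used a prior count of 2. P-values measure the spread between 3 mice a group. The labels name no batch.

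Values in every library were printed for the 6 genes with the smallest p in 21 mo against 18 mo and in 21 mo/O304 against 21 mo, the 3 with the smallest in 21 mo/O304 against 18 mo, the 5 with the highest FPKM, and the pair Acaa1a and Acaa1b. Alternatives were DESeq2 1.42.0, limma 3.58.1 (voom with sample quality weights, and limma-trend on log2 of FPKM plus 1 or 0.1 at a mean FPKM of at least 0.5), other scalings and filters, a block for the replicate number, the 6 libraries of a comparison alone, and leaving out each library. Counts were simulated for 21 mo against 18 mo, with the same spread in all groups and 200 genes changed 4-fold. Of these 86.5% were recovered by edgeR among 15612 genes with 1.70% false calls. DESeq2 recovered 94% among 15902 with 21.3% false, and voom 85% among 15612 with 1.16% false. In the data the spread was 44.1% among saline mice, against 18.1% and 20.6%, and the median log2 fold change of the 39 genes was −0.54. The simulated shares therefore do not tell how many changed genes would be recovered here.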

Additional observations from a re-analysis of the deposited data

How the results depend on the processing

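The direction of the median was the same under each of 20 alternatives in each of the 3 comparisons, but the count of peroxisomal genes past the threshold, 0 with edgeR, was not. For 21 mo against 18 mo, DESeq2 called 5 genes lower on all 9 libraries and 1 on the 6 compared. In either direction it called 7.18% of 28171 and 3.73% of 26940 genes. Voom with sample quality weights called 28 lower. For 21 mo/O304 against 21 mo, voom called 30 higher. For 21 mo/O304 against 18 mo, DESeq2 on the 6 libraries called 2 higher and 1 lower and voom 1 higher. Leaving out each library in turn gave 0 to 19 genes lower and medians from −0.91 to −0.24 in the first comparison, and 0 to 24 higher and medians from 0.28 to 0.79 in the second. The upper counts and both larger medians came without replicate 1 of the 21 mo group. Over all genes, the first comparison had 3 calls with edgeR, 2023 with DESeq2 on all 9 libraries, 8409 with voom, 576 when every gene with a count was kept, 4186 without replicate 1 of the 21 mo group and 130 without its replicate 3. The second had 0, 896, 6528, 17, 3808 and 1 in the same order, and the third 0, 118, 415, 0, 0 and 12. The causes of these changes were not tested, beyond fewer libraries or more genes where the alternative sets that.

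With the replicate number as a block, edgeR called 0 of the 39 genes in each comparison, as it called 0% of all genes. The medians in this fit were −0.64, 0.62 and 0.09. Same-numbered libraries correlated above 0.1 in 5 of 9 pairs (−0.13 to 0.17), and differently numbered ones ran from −0.26 to 0.20. With 3 mice a group these correlations cannot decide whether the numbers pair the mice. The main fit did not pair them. Of the 38 genes fitted in all 20 alternatives, 29, 34 and 29 kept the sign of their log2 fold change in each of them in the 3 comparisons, and Abcd2 was fitted in 17. The precision was limited by 3 mice a group and a spread of 44.1% in the 21 mo group.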
